A study of Mus musculus with 2 samples.

Results

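The 35 genes described here encode proteins that fasten skin cells to their neighbours or let them exchange small molecules. They comprise 9 desmosomal cadherins, 8 proteins of the desmosomal plaque or associated with desmosomes, 4 proteins of adherens junctions, 10 of tight junctions and 4 connexins of gap junctions. They were taken by name, and 44 of the 39422 probes outside the array's controls carry one of these names. The skin came from newborn C57BL/6N mice at postnatal day 0, either Pla2g4e-/- (knockout) or Pla2g4e+/+ (wild type), with no further treatment named. Pla2g4e encodes a cytosolic phospholipase A2 that takes part in making N-acylethanolamine precursors, and the study's title places it in psoriatic inflammation. For each genotype, RNA from the skin of 5 animals was mixed and read on 1 Agilent 1-colour array. Whole skin was used, so that fewer cells of a type and less RNA per cell cannot be told apart. Which exons the knockout lacks, the sex of the animals and the origin of the allele are not given in the sources used here.

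Epidermal cells are held together chiefly by desmosomes, in which desmogleins and desmocollins reach across to the next cell and are tied to keratin filaments by plakoglobin, plakophilins and desmoplakin. Adherens junctions do the same for actin filaments through E- or P-cadherin and the catenins, tight junctions of claudins and occludin seal the granular layer, and connexins form channels between cells. As keratinocytes leave the basal layer they change the isoforms they use: desmoglein 3 and desmocollin 3 are typical of lower layers, whereas desmoglein 1, desmocollin 1, plakophilin 1 and corneodesmosin are typical of upper ones. Loss or blockade of these proteins is known to cause blistering, fragile skin, sparse hair or a leaky barrier.

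With 1 array per genotype no difference has a replicate check, and no test was possible; position on the slide cannot be told apart from genotype. The median probe reading was 223 for wild type and 216 for knockout, and 78.0% and 80.8% of probes were well above background. Each array was scaled to its own 75th percentile, after which a difference of 0 means that the knockout reading was 93.9% of the wild-type reading, since the readings quoted are unscaled. The scanner's own error for a difference was 0.20 to 0.21 log2 for every member, which covers the spot and not the animals. Pla2g4e itself read 662 (wild type) and 320 (knockout), in the order kept for every pair of readings, a difference of -0.96 log2. Its other probe read 10.6 and 11.7 and was not well above background in wild type. The Y-linked gene Ddx3y read 2893 and 2.36, so that the pools also differed in sex, and the part of sex in the differences was not tested. Keratins of epidermis and collagens of dermis were abundant in both pools: Krt14 read 92691 and 87086, and Col1a1 read 111589 and 112938.

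The hair desmoglein Dsg4 was the 1 junction gene past 1.5-fold, and members past that size were no more frequent than among all genes. Of the 35 genes, 34 were well above background on both arrays and are called measured; the claudin Cldn6, known from embryonic epithelia and periderm, read 12.8 and 11.8 and was not well above background in either pool. Members higher in knockout by 1.5-fold or more numbered 0 of 34, while 6.69% of the 18271 measured genes passed that size. Members lower by that size numbered 1 of 34, namely Dsg4, beside 4.31% of all measured genes; at 2-fold the counts were 0 and 1, again Dsg4, beside 2.27% and 1.36%. The median of the members was 0.08 log2, that of all measured genes was 0.01, and the middle part of the members, from the lower to the upper quartile, ran from -0.12 to 0.22 against -0.17 to 0.20 for all genes. Apart from Dsg4, all members lay inside the central 95% of all genes, which ran from -0.74 to 0.95 log2. Within 1 scanner error of 0 were 17 of 34 members, beside 56.1% of all genes. Past 2 scanner errors were the connexins Gjb5 and Gjb6 on the higher side, beside 11.1% of all genes, and Dsg4 and the claudin Cldn3 on the lower side, beside 7.59%. Above 0 were 21 of 34, or 61.8%, beside 52.1%.

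Dim probes vary most, and 21 of the members were brighter than the median measured gene. Of these 21, 0 were higher and 0 were lower by 1.5-fold, beside 3.91% and 2.43% of the 9135 brighter genes, and 0 were lower or higher by 2-fold, beside 0.799% and 1.03%. Past 2 scanner errors were 1, Gjb6, on the higher side and 0 on the lower side, beside 8.18% and 5.73%. Within 1 scanner error were 13 of 21, beside 61.1%, and above 0 were 15 of 21, beside 51.6%. Bright members stood about as close to 0 as bright genes in general.

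**Figure D1:**
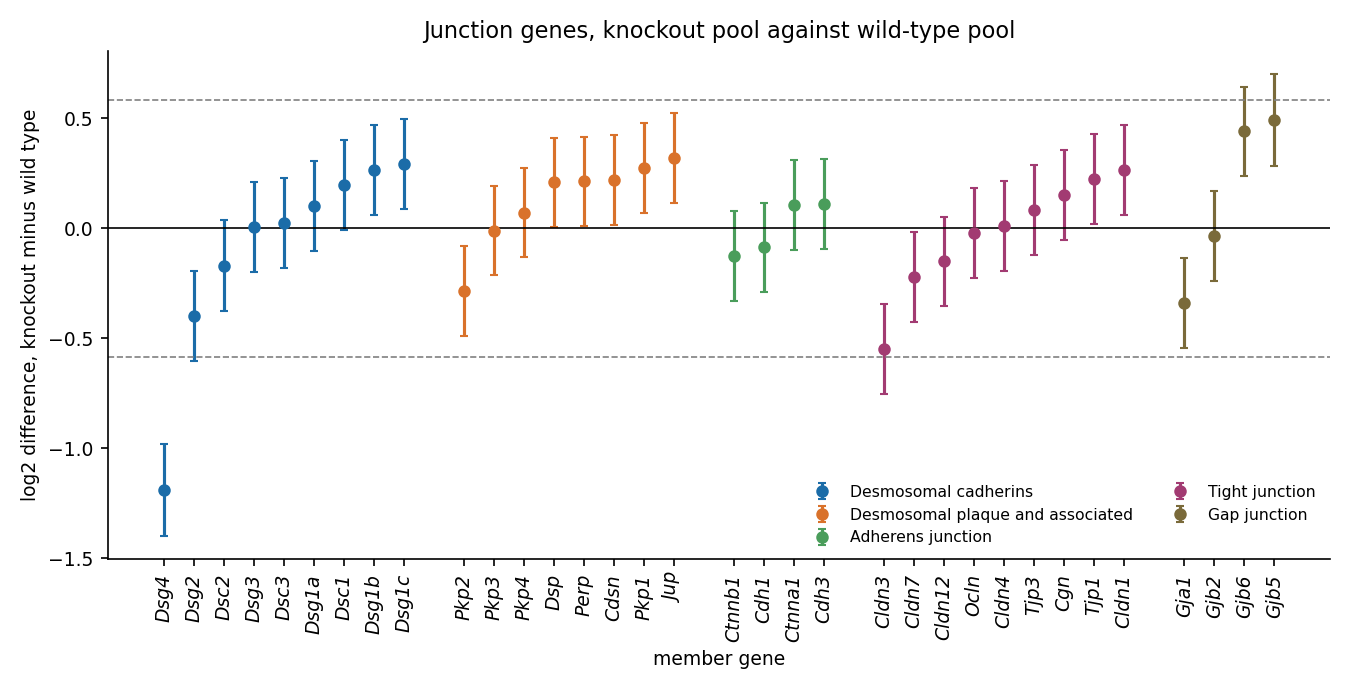
Log2 difference, knockout minus wild type, of the 34 measured junction genes, ordered within each junction type; bars are the scanner's error for 1 probe and the dashed lines mark 1.5-fold. Dsg4 at -1.19 is the only point outside the dashed lines, and Cldn3 at -0.55 comes next to the lower line.

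**Figure D2:**
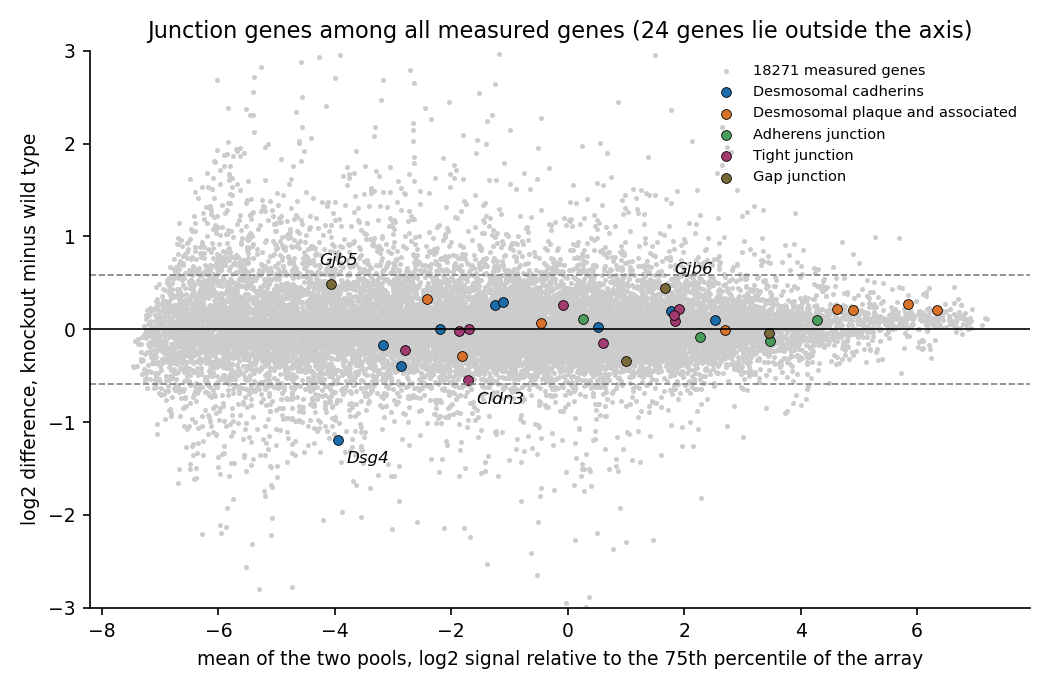
Log2 difference against mean log2 signal, relative to the 75th percentile of each array, for 18271 measured genes in grey and the junction genes in colour; dashed lines mark 1.5-fold. The members span the signal range, most of them lie close to 0, and Dsg4 stands alone below.

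The desmosomal cadherins had a median of 0.02 log2 over 9 genes, with 6 above 0 and 3 below. Dsg4, the desmoglein of the hair shaft and of the uppermost epidermis, read 220 and 90.3. After scaling it was lower by -1.19 log2, or 2.28-fold, which left 43.8% of the wild-type level, with a scanner error of 0.21. With normexp background correction the difference was -0.72 log2, past 1.5-fold but not 2-fold. The probe, for the transcript NM_181564, lies at mm9 chromosome 18, 20630260 to 20630319. The other Dsg4 probe, for AY170623, read 11.4 and 8.42 and was not well above background in either pool, so the difference rests on 1 dim probe. Of all measured genes, bright and dim together, 2.44% differed by as much in either direction. Dim genes passed such sizes more often: 1.36% of all genes were lower by 2-fold, against 0.799% of the brighter ones.

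Hair follicle markers were lower beside Dsg4. All 20 measured markers of hair keratins, inner root sheath keratins and follicle regulators were below 0, 14 of them by at least 1.5-fold (4.31% of all genes), with a median of -0.80 log2, and their summed reading was 470013 and 276149. All 20 were well above background in both pools. The hair keratins Krt34 (-1.50), Krt83 (-1.49), Krt33b (-1.47), Krt86 (-1.35), Krt31 (-1.29) and Krt33a (-1.25) were lower by more than Dsg4, and the regulator Lef1 (-0.17) and the transcription factor Foxn1 (-0.28) by the least. The part of the follicle markers in the Dsg4 difference was not tested.

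The other desmogleins differed less than Dsg4. Dsg1a, a mouse copy of desmoglein 1, read 12495 and 12586, a difference of 0.10 log2. Dsg1b read 854 and 963 (0.26 log2), and Dsg1c read 939 and 1079 (0.29 log2). All 3 copies were above 0, by 0.5 to 1.4 scanner errors. Their probes matched each other at no more than 24 of 60 bases without gaps. That count does not compare a probe with the RNA of another copy, and binding to such RNA was not tested. Dsg3, the basal desmoglein that autoantibodies attack in pemphigus vulgaris, read 486 and 457, a difference of 0.00; its other probes read 326 against 258 (-0.25 log2) and 29.4 against 27.5. Dsg2, the desmoglein of simple epithelia, heart and some follicle cells, read 352 and 251, a difference of -0.40 log2. A dimmer Dsg2 probe read 87.6 and 61.9 (-0.41 log2), so both probes above background put Dsg2 lower, the brighter one at 75.9% of the wild-type level; the dimmest, at 9.47 and 10.7, was not well above background.

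Among the desmocollins, Dsc1 of the upper epidermis was slightly above 0 and Dsc2 slightly below. Dsc1 read 7122 and 7662 (0.20 log2), Dsc2, the desmocollin shared by most desmosome-bearing tissues, read 264 and 220 (-0.17 log2), and Dsc3 of the lower epidermis read 3168 and 3025 (0.02 log2). Each of these lay within 1 scanner error of 0. A dimmer Dsc3 probe read 373 and 321 (-0.13 log2), so the sign of Dsc3 depended on the probe.

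All 9 cadherin genes lie in a row on mouse chromosome 18, with their probes spread over 637 kb and 0 other measured genes between them. In this row Dsg4 (-1.19) sits between Dsg1b (0.26) and Dsg3 (0.00). The large difference was therefore not shared by the adjacent genes. Dsg2 (-0.40), at the far end of the row, was the other cadherin gene below 0 by more than 1 scanner error.

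**Figure D3:**
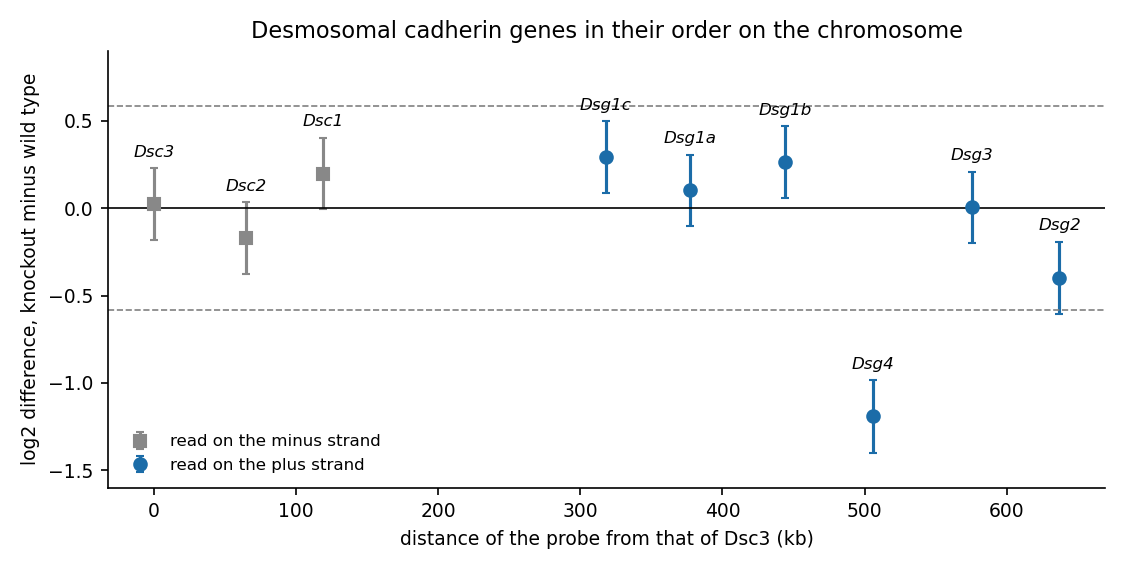
Log2 difference, knockout minus wild type, of the 9 desmosomal cadherin genes, placed by the distance of their probes along the chromosome in kb; squares are desmocollins, read on the minus strand, circles are desmogleins, read on the plus strand, and bars are scanner errors. Dsg4 lies far below its neighbours Dsg1b and Dsg3.

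Desmosomal plaque and associated genes were mostly a little above 0, with a median of 0.21 log2 over 8 genes, 6 above and 2 below. Dsp encodes desmoplakin, which links the plaque to keratin filaments. Its probe is printed 10 times, and the spots read from 59043 to 63096, with a median of 61839, in wild type and from 65440 to 69591, with a median of 66300, in knockout. All 10 spots were higher in knockout after scaling and the spots of the pools did not overlap, with a mean difference of 0.21 log2 and an SD over spots of 0.027. Spots share a pool, and how many of the 378 probes printed 10 times also separate was not counted. The other Dsp probe read 1535 and 1582 (0.13 log2). Jup, plakoglobin, read 373 and 437 (0.32 log2), the highest of the plaque genes, from 1 probe dimmer than the median measured gene. Pkp1, the plakophilin of upper epidermal layers whose loss causes skin fragility, read 116637 and 132291 (0.27 log2). Perp, a tetraspan desmosome protein and p63 target, read 169078 and 183955 (0.21 log2), and Cdsn, corneodesmosin of the cornified layer, read 50751 and 55430 (0.22 log2).

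These 5 genes lay between 1.0 and 1.6 scanner errors above 0. The 4 brightest of them were smaller when the trend of differences with signal was removed by loess, at 0.15 for Dsp, 0.20 for Pkp1, 0.13 for Perp and 0.17 for Cdsn. The other plakophilins did not follow them. Pkp2, which also serves the heart and simple epithelia, read 703 and 542 (-0.28 log2), while Pkp3, found throughout the epidermis, read 14626 and 13629 (-0.01 log2) and Pkp4, which is also found at adherens junctions, read 1586 and 1564 (0.07 log2).

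Adherens junction genes were the most even of the junction types, all 4 within 1 scanner error of 0 and with a median of 0.01 log2. Cdh1, E-cadherin, was printed 10 times and read from 10270 to 12135, with a median of 11133, in wild type and from 8958 to 10781, with a median of 9842, in knockout. Each of its 10 spots was lower in the knockout pool than at the same position of the other array, by a mean of -0.09 log2 with an SD over spots of 0.020, although the ranges of the pools overlapped. The share of probes printed 10 times with all spots in the same direction was not counted. Cdh3, P-cadherin of basal cells and the hair matrix, read 2590 and 2621 (0.11 log2). Of the catenins, which join cadherins to actin, Ctnna1 read 41804 and 42194 (0.10 log2) and Ctnnb1 read 25796 and 22179 (-0.13 log2).

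**Figure D4:**
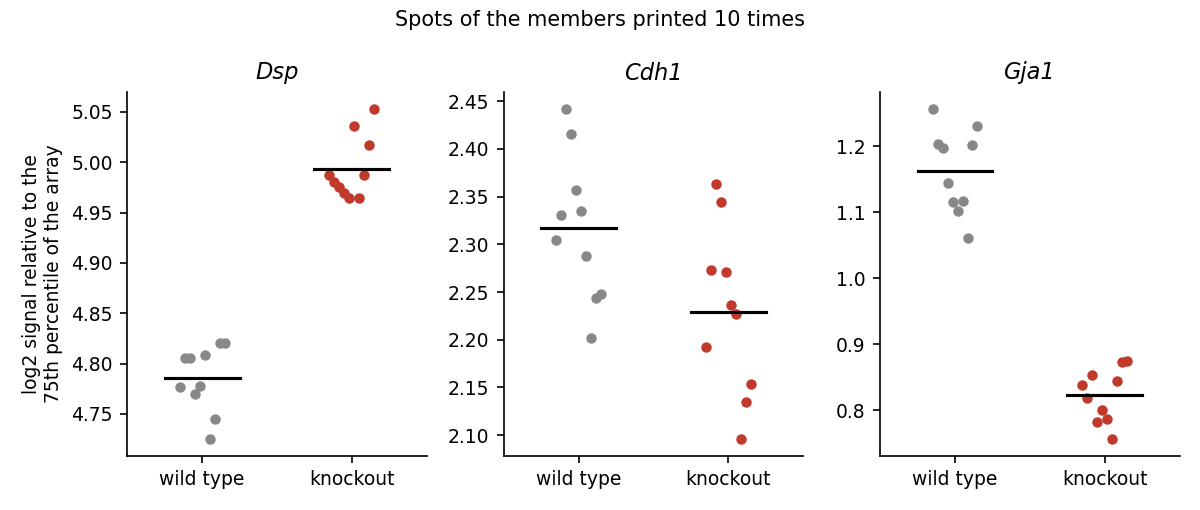
Log2 signal, relative to the 75th percentile of the array, of each spot of the 3 members printed 10 times, with bars at the means; the vertical scales differ. Spots of Dsp are higher and spots of Gja1 lower in the knockout pool without overlap, while those of Cdh1 overlap; spots share a pool and are not replicates of a genotype.

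Tight junction genes had a median of 0.01 log2 over 9 measured genes, 5 above 0 and 4 below, and the claudins went in both directions. Cldn3, a claudin of simple and glandular epithelia also present in epidermis, read 822 and 526. The difference was -0.55 log2, or 1.47-fold lower, just short of 1.5-fold and 2.7 times its scanner error; 12.3% of all measured genes differed by as much in either direction. Its probe, for NM_009902, lies at mm9 chromosome 5, 135463284 to 135463342. Cldn7, found along the sides of epithelial cells, read 347 and 279 (-0.22 log2), and the ubiquitous Cldn12 read 3574 and 3021 (-0.15 log2). Cldn1, without which newborn mice die of water loss through the skin, read 1931 and 2180 (0.27 log2), the highest of the tight junction genes.

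Cldn4, a claudin of the granular layer, lies 41.9 kb from Cldn3 by probe position and did not share its difference. It read 689 and 651 (0.01 log2), and its other probe read 502 and 524 (0.15 log2). The gap between Cldn4 and Cldn3 was 0.56 log2, with a combined scanner error of 0.29. The 250 bases before the start of each gene are shown because these neighbours differed; they come from RefSeq, build GRCm38.p6, on the strand of the gene. Capitals mark matches, on either strand, to 3 motifs of factors known to act on junction genes: AP-1 (TGANTCA), Grainyhead (AACNGGTT) and the E-box bound by Snail (CACCTG). The window of Cldn4, chr5:134946935-134947184 on the minus strand, held 2 AP-1 matches and 1 E-box. That of Cldn3, chr5:134985964-134986213 on the plus strand, held 0 of the 3 motifs.
Cldn4: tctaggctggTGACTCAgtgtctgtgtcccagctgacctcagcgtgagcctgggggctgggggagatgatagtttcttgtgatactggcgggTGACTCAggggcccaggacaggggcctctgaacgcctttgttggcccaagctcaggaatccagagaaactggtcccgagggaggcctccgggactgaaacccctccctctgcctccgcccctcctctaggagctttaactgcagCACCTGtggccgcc
Cldn3: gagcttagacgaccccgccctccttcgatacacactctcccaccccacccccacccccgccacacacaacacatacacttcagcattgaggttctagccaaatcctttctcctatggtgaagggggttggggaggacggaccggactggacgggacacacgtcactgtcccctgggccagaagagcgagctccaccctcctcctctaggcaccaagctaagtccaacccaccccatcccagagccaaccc

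The remaining tight junction members lay near 0. Ocln, occludin, read 616 and 570 (-0.02 log2), and a dimmer probe read 151 and 115 (-0.30 log2). Of the scaffold proteins under the membrane, Tjp1 (ZO-1) read 7816 and 8559 (0.22 log2), Tjp3 (ZO-3) read 7804 and 7765 (0.08 log2), and Cgn, cingulin, read 7471 and 7783 (0.15 log2). By the brightest probe of each gene, Tjp1 was the only one of these to exceed 1 scanner error. The dimmer Ocln probe, with an error of 0.21 log2, also exceeded it, on the lower side.

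The 4 connexins spread more widely around 0 than the adherens genes, with 2 above 0 and 2 below and a median of 0.20 log2, which was -0.035 with brighter genes alone, where Gjb5 is left out. Gjb5, a connexin of stratified epithelia, was a dim probe that read 112 and 148. The difference was 0.49 log2, or 1.41-fold higher, with a scanner error of 0.21; the probe, for NM_010291, lies at mm9 chromosome 4, 127032053 to 127032112. Gjb6, connexin 30 of the upper epidermis and follicle, read 6125 and 7802. It was higher by 0.44 log2, or 1.36-fold, with a scanner error of 0.20, and its probe, for NM_001010937, lies at mm9 chromosome 14, 57742226 to 57742285. In all genes 14.9% and 18.1% differed by as much as Gjb5 and Gjb6 in either direction. Gja1, connexin 43, the main connexin of lower epidermal layers and of dermal cells, was printed 10 times. Its spots read from 4656 to 5335, with a median of 5025, in wild type and from 3539 to 3843, with a median of 3722, in knockout. All 10 spots were lower and the pools did not overlap, with an SD over spots of 0.054. The mean difference of -0.34 log2 was 1.7 times the scanner error in size, an error for 1 spot that is not reduced for the 10 spots. As for Dsp, the share of such probes without overlap was not counted.

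Gjb2, connexin 26, lies 24.6 kb from Gjb6 and read 24810 and 22728, a difference of -0.04 log2. The gap between Gjb6 and Gjb2 was 0.48 log2, with a combined scanner error of 0.29. The windows before their starts, and that of Gjb5, are shown as for the claudins, since Gjb5 and Gjb6 were the highest members and Gjb2 is the unlike neighbour. Gjb6, at chr14:57133612-57133861 on the minus strand, held 1 Grainyhead match, and Gjb2, at chr14:57104703-57104952 on the minus strand, held 1 E-box. Gjb5, at chr4:127358165-127358414 on the minus strand, held 0 of the 3 motifs. The window of Gjb2 had a GC content of 69.2% and 18 CpG pairs, that of Gjb6 56.8% and 5, and that of Gjb5 54.4% and 3.
Gjb6: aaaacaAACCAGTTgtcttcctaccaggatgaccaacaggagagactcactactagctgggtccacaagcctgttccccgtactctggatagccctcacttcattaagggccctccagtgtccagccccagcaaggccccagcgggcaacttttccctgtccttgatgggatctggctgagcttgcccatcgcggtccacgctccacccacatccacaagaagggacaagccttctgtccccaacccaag
Gjb2: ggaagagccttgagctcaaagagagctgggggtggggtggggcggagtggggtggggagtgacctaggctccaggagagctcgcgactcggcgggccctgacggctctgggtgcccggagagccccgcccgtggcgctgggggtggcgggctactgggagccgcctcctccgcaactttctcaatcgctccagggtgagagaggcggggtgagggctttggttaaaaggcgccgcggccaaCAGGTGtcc
Gjb5: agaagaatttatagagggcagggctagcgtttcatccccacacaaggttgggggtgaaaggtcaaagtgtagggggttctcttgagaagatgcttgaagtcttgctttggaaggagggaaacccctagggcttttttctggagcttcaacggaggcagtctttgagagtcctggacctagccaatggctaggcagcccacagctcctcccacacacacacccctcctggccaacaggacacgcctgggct

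RefSeq windows were found for 18 of the 34 measured members, 26 windows in all. A Grainyhead match was in 2 of the 26, those of Gjb6 and Cgn, beside 1.79% of 32851 windows of all genes. An AP-1 match was in 2 of the 26, those of Cldn4 and Gja1, beside 6.75%. The E-box was in those of 7 members, Cdsn, Cldn4, Cldn7, Gjb2, Ocln, Pkp4 and Tjp3, in 9 of the 26 windows, beside 17.2% of all windows. These 7 differed between -0.22 and 0.22 log2, and the matches describe letters alone.

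The median difference of members listed here as typical of upper epidermal layers was above 0. That of members listed as lower was below 0. The 10 upper members, Dsg1a, Dsg1b, Dsg4, Dsc1, Pkp1, Cdsn, Cldn4, Ocln, Cgn and Gjb6, had a median of 0.17 log2, with 8 above 0 and 2 below, and without Dsg4 the median was 0.20. The 7 lower members, Dsg2, Dsg3, Dsc2, Dsc3, Pkp2, Cdh3 and Gja1, had a median of -0.17 log2, with 3 above 0 and 4 below. The 4 below were Dsg2 (-0.40), Gja1 (-0.34), Pkp2 (-0.28) and Dsc2 (-0.17). All 4 were described above as genes of other tissues or of dermal cells too. The 3 above 0 were Dsg3 (0.00), Dsc3 (0.02) and Cdh3 (0.11), each within 1 scanner error of 0. The lower median, which is the value of Dsc2, depends on the place of those 4 genes in the list. Of all measured genes 52.1% were above 0. The other 17 measured members, which were assigned to neither layer, had a median of 0.08. Among them was Dsg1c (0.29), a copy of desmoglein 1. The order of layers was not kept within the desmogleins, where upper Dsg4 (-1.19) lay below lower Dsg3 (0.00). Of the 7 lower members, 4 were dimmer than the median gene, and with brighter genes alone the upper median was 0.21 and the lower 0.02. The difference between these medians was 0.34 over all measured members and 0.18 over the brighter ones. Without Dsg2 the lower median was -0.08.

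Markers of the layers themselves did not show the same contrast. The 8 basal keratinocyte markers had a median of 0.25 log2, from Krt5 at -0.05 to the laminin gene Lamb3 at 0.48, and 7 were above 0. The 10 measured suprabasal markers had a median of 0.07, with Ivl, involucrin (0.63), highest and the keratin Krt77, which read 471 and 221, lowest. Krt1 (0.11) and Krt10 (0.14), the main suprabasal keratins, differed by less than the scanner error.

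**Figure D5:**
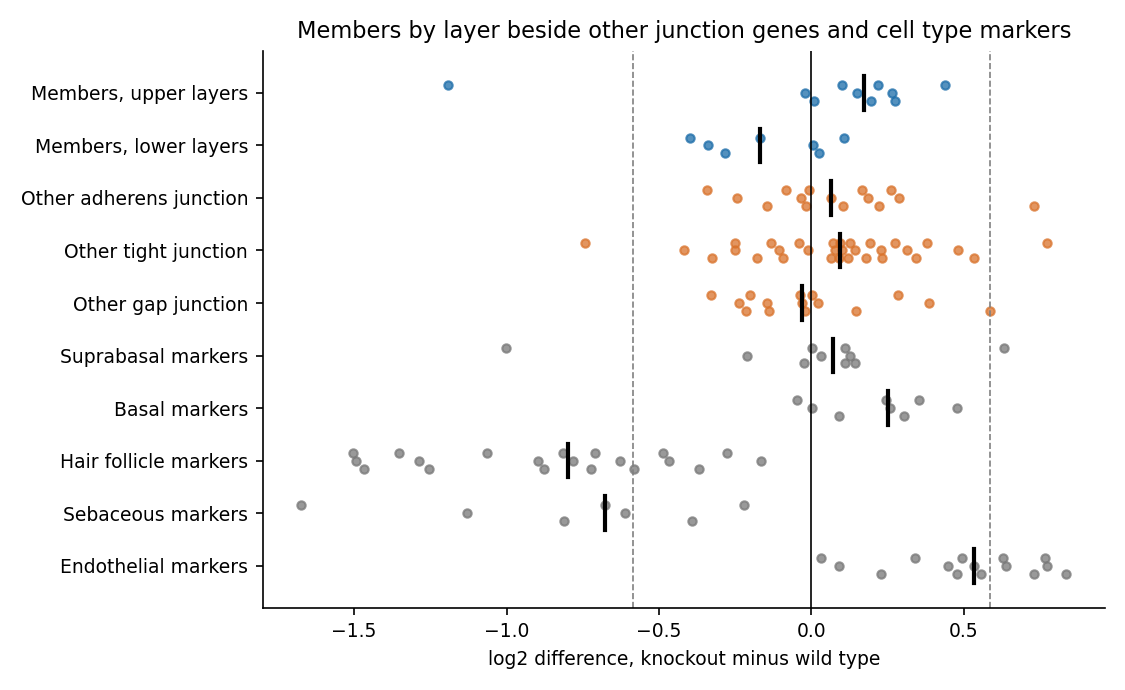
Log2 difference, knockout minus wild type, of each measured gene (points) with the list's median (bar); dashed lines mark 1.5-fold. The upper-layer median lies to the right of the lower-layer median, Dsg4 lies within the span of the hair follicle markers, and endothelial markers lie above 0.

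Junction genes beyond the 35 were also close to 0 as a group. Of 72 further genes listed, 64 were measured, with a median of 0.07 log2; 2 were higher by 1.5-fold or more and 1 lower, beside the 6.69% and 4.31% of all genes. The 2 higher were Esam (0.77), an adhesion molecule of endothelial tight junctions, and Cdh5 (0.73), the cadherin of endothelium. Esam read 1899 and 3049, and Cdh5 read 2162 and 3364. Cldn5, the claudin of endothelium, was next among the tight junction genes at 0.54, with readings of 4407 and 5995. The 15 endothelial markers, among them these 3 genes, were all above 0, with a median of 0.54 log2, 6 of them at least 1.5-fold higher, and a summed reading of 45505 and 58474. The part of endothelial RNA in these differences was not tested.

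The 1 lower gene was Cldn17, a claudin whose dim probe read 107 and 60.2 (-0.74 log2). With normexp it stood at -0.29 and was not past 1.5-fold. Panx3, a pannexin, cleared background on the wild-type array alone, with 1 dim probe at 45.0 against 8.94. With the knockout value set to 9.84, the lowest signal well above background on that array, Panx3 was lower in knockout by 4.29-fold. This value carries no error. It is not a strict bound either, since some brighter probes, such as that of Cldn6 at 11.8 in knockout, were not well above background. Cldn22, at 11.8 and 15.2, and Gja6, at 13.5 and 12.9, cleared background on the knockout array alone. Set against the lowest such signal of the wild-type array, they were 1.20-fold and 1.02-fold higher, which are not strict bounds either. The cytolinkers of the desmosome and cornified envelope, Ppl (0.24) and Evpl (0.10), were above 0, and Kazn (-0.23), which binds Ppl, was below. The nectins, adherens proteins that cadherins work with, ranged from -0.34 for Nectin3 to -0.01 for Nectin4.

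Transcription factors that govern junction genes, and proteases that cut corneodesmosomes, held 0 genes past 1.5-fold, beside 6.69% of all genes higher and 4.31% lower, so that in lists of this length few or none would be past it at the share of all genes. The 16 factors had a median of 0.10 log2, from Ovol1 (-0.43), a repressor in differentiating keratinocytes, to Zeb1 (0.31), a repressor of E-cadherin. Grhl1, a Grainyhead factor that acts on Dsg1, stood at 0.09, Grhl3 at 0.25 and Snai2 at 0.26. The 9 measured genes of corneodesmosome turnover had a median of 0.17, from the protease St14 (-0.41) to the kallikrein Klk6 (0.52). Klk5 (-0.04) and Klk7 (0.23), kallikreins that act on Cdsn, and their inhibitor Spink5 (0.09) lay between.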

How the data were processed

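Scanned images were quantified in Agilent Feature Extraction, version 11.5.1.1 per the submitters' processing notes. The authors deposited each spot's intensity on a linear scale, already background-subtracted and detrended within the array, per the file headers, and a value table that holds a ratio, the same intensity divided by 2406 (wild type) or 2273 (knockout), whose column medians were 0.0946 and 0.0969; how these constants were chosen is not stated. Here, log2 intensity was averaged over the spots of a probe and reduced by the array's 75th percentile. Control spots and 234 outlier spots of 43020 were left out. Genes took the name in the file, updated through RefSeq (GRCm38.p6) synonyms; 8819 of 39422 probes had no usable name. RefSeq accessions gave every member probe the same name. A gene stands for its brightest probe well above background on both arrays. For 378 probes printed 10 times, the median SD of the difference over spots was 0.037 log2 for those above background.

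No test was run, with 1 array per group; genes were counted at 1.5-fold. Members, gene lists and alternatives were chosen with earlier results of these data known, as were the members named, which are all 35; other lists give up to 4 genes past 1.5-fold each way or their extremes, and further genes, the promoter windows and their motifs were chosen after values were seen. The code recovered known shifts in simulated data. Alternatives were another percentile base, normexp (limma 3.58.1, offset 50), quantile and loess normalization, averaged probes, no background filter, brighter genes alone, RefSeq naming and the deposited table.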

Additional observations from a re-analysis of the deposited data

How the results depend on the processing

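With 1 array per genotype the limit is the number of arrays, and dim probes such as those of Dsg4 and Gjb5 carry the most doubt. A median or a gene's difference was taken as moved when it changed by more than its scanner error in the main values. Over 9 alternatives, 103 values of the counts and medians kept within that or, for counts, within 1.5 times, and 5 did not. With brighter genes alone, which leaves out Dsg4 and Gjb5, the count of members at least 1.5-fold lower was 0, the gap junction median was -0.035 and the count of further junction genes lower was 0; that count was also 0 with normexp and 3 with no filter on the background mark. For single genes 317 values kept within it and 2 did not, both with normexp: Dsg4 to -0.72, still past 1.5-fold but not 2-fold, and Cldn17 to -0.29. Some of the kept values could not have moved. The deposited table differs by a constant that scaling removes, and RefSeq naming gave the members the same names. Averaging cannot change the 28 members with 1 probe. Another percentile base shifts all differences alike. That shift took the count of further junction genes at least 1.5-fold higher from 2 to 3, which counts as kept. The added gene was Panx2, which at 0.58 log2 lay just short of 1.5-fold in the main values. The tallies are therefore no measure of robustness. The members higher by 1.5-fold numbered 0 under all 9 alternatives. The upper-layer median ranged from 0.15 to 0.21 and the lower-layer median from -0.21 to 0.02. Of the 34 measured members, 30 kept their sign in all the alternatives that gave a value; the exceptions, Dsg3, Dsc3, Cldn4 and Ocln, were near 0. No paired analysis was possible because each genotype had 1 array.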

Other observations

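Markers of other cells of newborn skin had medians from well below to well above 0. Sebaceous gland genes were lower in 7 of 7 cases, the median being -0.68 log2, led by Fa2h (-1.67) and Elovl3 (-1.13). Of 9 measured neutrophil genes, 6 were at least 1.5-fold higher, beside 6.69% of all measured genes, with a median of 1.19. Mmp8 (2.56) and S100a9 (2.36) led. Of the 6, Mmp8, Cxcr2, Ngp and Ltf were dim, at 21.6, 22.4, 57.2 and 56.9 in wild type, while S100a8 and S100a9 were brighter. Csf3r (-0.04) read 125040 and 113910, above Krt14 in both pools. The 12 skeletal muscle genes had a median of 0.40, from Mb at -0.27 to Myh3 at 0.99, and the 9 Schwann cell genes a median of 0.18, from Sox10 at -0.25 to Cdh19, itself a cadherin, at 0.66. For 9 fibroblast genes the median was 0.11, from Lum at -0.23 to Pdgfra at 0.49. The 6 measured genes of periderm and simple epithelium had a median of -0.07, with Krt18 (0.69) and Krt8 (0.33) highest and Krt7 (-0.44) and Krt19 (-0.12) lowest.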
